A study of Rattus norvegicus with 4 samples.

Results

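The glucocorticoid stress axis was described here through 9 genes in the hippocampus of newborn rats: the corticotropin-releasing hormone gene Crh and its receptor Crhr1, the steroid-converting enzymes Hsd11b1 and Hsd11b2, the corticosteroid receptors Nr3c1 and Nr3c2, and the receptor-responsive genes Fkbp5, Sgk1 and Tsc22d3. The rows of the expression files were taken by gene symbol, which gave 1 row for each of the 9 genes among 17445 rows in any file, and all 9 rows were listed for all 4 libraries. The libraries came from the hippocampi of Wistar pups on postnatal day 1. Their dams, 10 weeks old per the labels, received BPA by daily intragastric dosing at 5000 µg/kg body weight from gestational day 1 until delivery, or the vehicle, which was corn oil with the ethanol of the BPA stock. There was 1 library each for control males, BPA males, control females and BPA females, and each library was a pool of 3 hippocampi, so that no group had a replicate library and the spread between pups or litters could not be measured.

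Glucocorticoids such as corticosterone, the main one of the rat, are released at the end of a hormone cascade that starts with corticotropin-releasing hormone. In cells they bind the high-affinity mineralocorticoid receptor and the lower-affinity glucocorticoid receptor, and the hippocampus is known as a brain region that holds both. The bound receptors act in the nucleus on target genes, and enzymes of the 11-beta-hydroxysteroid dehydrogenase family set how much active steroid reaches them. The first days after birth in the rat belong to a period in which the stress response of the adrenal gland is dampened.

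Expression was given as FPKM, the sequenced fragments scaled by the length of the gene model and by the size of the library, so that levels can be compared between genes per length. The steps of the low values gave a depth of about 8680000 to 8860000 fragments per library. Estimated fragments behind a value carry an exact Poisson 95% interval that covers counting error only. Over the 12 markers fixed for hippocampal pyramidal and granule neurons, 10 had a row and all 10 had a mean of at least 10.8 FPKM, with a summed level of 504 (control) and 515 (BPA) FPKM in males and of 458 and 480 FPKM in females. Markers of tissues that border the hippocampus differed between the libraries. The 8 meningeal and vessel wall markers summed to 349 FPKM in female control against 75.2 to 94.3 FPKM in the other 3 libraries, and the 7 choroid plexus markers to 268 and 710 FPKM in the male libraries against 9.28 and 48.9 FPKM in the female libraries. Ttr alone gave 256.46 and 689.51 FPKM of the male and 3.96 and 42.39 FPKM of the female choroid plexus sums, and the other 6 markers summed to 11.1 and 20.2 FPKM in males and 5.32 and 6.54 FPKM in females. None of these 15 markers was at 0.1 FPKM or less in all libraries. In these bulk samples, fewer cells of a type and less RNA per cell cannot be told apart.

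The 9 genes spanned a wide range of levels. Tsc22d3 was the most abundant with a mean of 27.0 FPKM over the 4 libraries, followed by Sgk1 with 15.0, Fkbp5 with 13.6, Nr3c2 with 12.7, Hsd11b1 with 9.04, Crhr1 with 7.34, Nr3c1 with 4.42, Crh with 1.64 and Hsd11b2 with 0.46 FPKM. The ranges over the 4 libraries of Sgk1 and Fkbp5 overlapped, as did those of Fkbp5 and Nr3c2, while every other pair of neighbours in this order had separate ranges. Tsc22d3 lay above 76.7% of the 13171 rows with a gene ID listed in all 4 libraries, and Hsd11b2 above only 12.4% of them. The hormone gene Crh and the inactivating enzyme Hsd11b2 were thus the rarest of the 9, and Hsd11b2, whose mean did not reach 1 FPKM, was left untested.

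**Figure D1:**
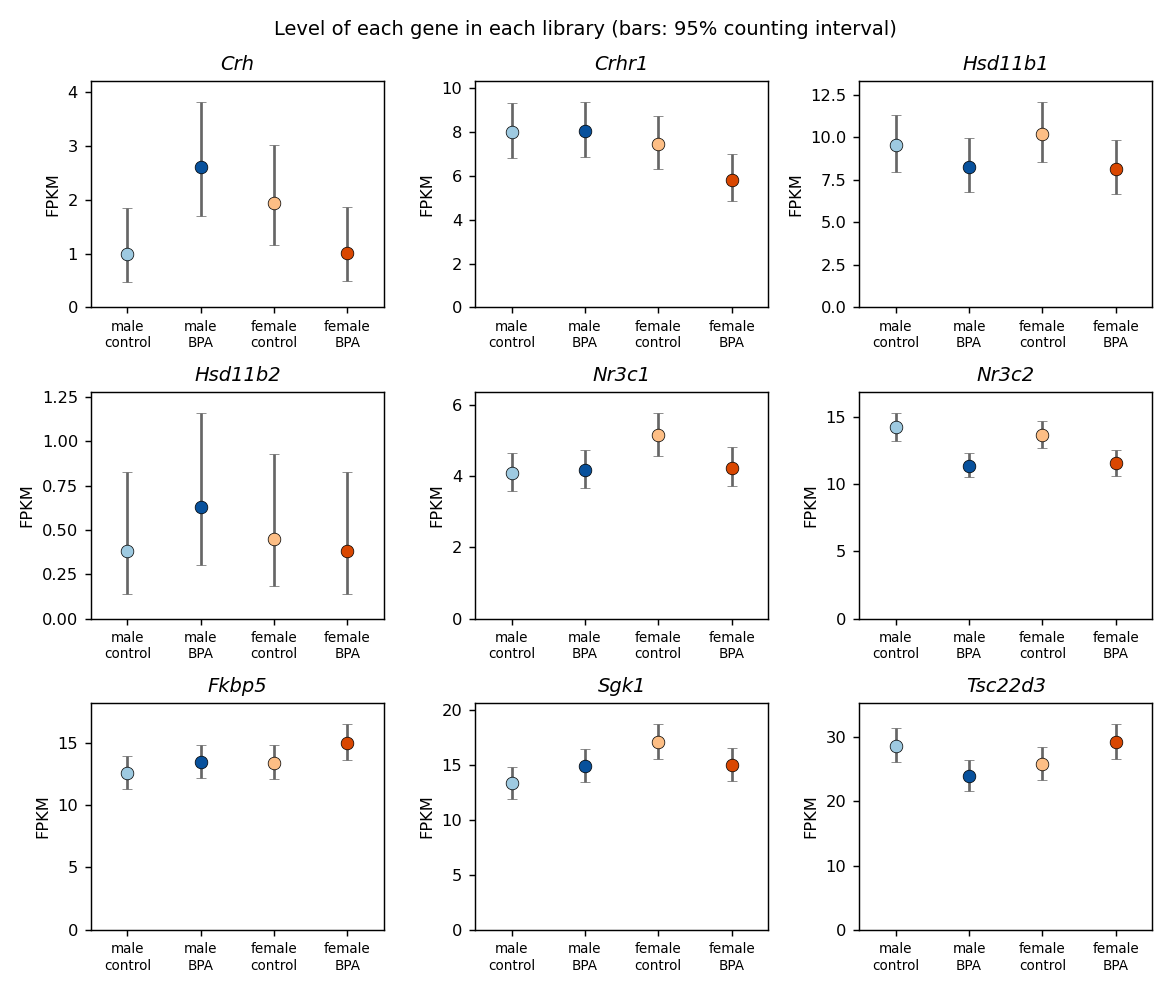
Each panel plots the level of 1 gene in FPKM (y axis, from 0) in the 4 libraries (x axis), with a point for the deposited value and a bar for the 95% counting interval. Nr3c2 lay at 14.23 and 13.66 FPKM in the control libraries and at 11.34 and 11.53 FPKM in the BPA libraries, while the bars of Crh and Hsd11b2 were wide for their low counts.

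The question of the design was whether prenatal BPA changed gene expression in the hippocampus, in pups of both sexes and in each sex. None of the 8 members tested passed when the 2 BPA libraries were compared with the 2 control libraries (limma on log2(FPKM + 1), Benjamini-Hochberg adjusted p under 0.05), where 0.0% of the 13542 rows tested passed. At an unadjusted p under 0.05, limma gave 0 of the 8 members, beside 4.7% of all rows and 3.86% of the rows with a gene ID, the kind of row the members are. With 1 library of each sex per treatment, the spread in this test includes the difference between the sexes, and the smallest two-sided p of an exact permutation test on 2 and 2 libraries is 0.333. Within a sex, 1 library stands against 1, so that no test was made and the values describe those libraries.

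The genes of the hormone signal, Crh and Crhr1, did not share a pattern. Crh (gene ID 81648), which encodes the peptide that starts the hormone cascade and is also made by interneurons of the developing hippocampus, measured 1.00 (control) and 2.61 (BPA) FPKM in the male pools, and 1.93 and 1.01 FPKM in the female pools. It was higher in the male BPA pool than in the male control pool and lower in the female BPA pool than in the female control pool, and the BPA and control values overlapped. These levels rested on about 10, 26, 19 and 10 fragments. The ratio of BPA to control was 2.61 in males, a log2 ratio of 1.38 with a counting interval from 0.28 to 2.60, and 0.523 in females, a log2 ratio of -0.93 with an interval from -2.2 to 0.24. On log2(FPKM + 1), where low values are compressed, the differences were 0.85 in males and -0.54 in females. Crh was the only one of the 8 members with a mean of at least 1 FPKM that was past an absolute difference of 0.5 in either sex. Over all rows, 7.26% were past it in males and 10.1% in females, and over the rows with a gene ID 3.46% and 6.15%. Among the 1293 rows with a gene ID and a mean of 1 to 3 FPKM, the shares were 10.5% in males and 15.8% in females, and 0.696% were past it in opposite directions, as were 0.913% of all rows and 0.149% of the rows with a gene ID. The 8 interneuron markers summed to 278 (control) and 266 (BPA) FPKM in males and 257 and 226 FPKM in females, so that in females both Crh and this sum were lower in BPA. Their part in the level of Crh was not tested. With both sexes combined, the difference of Crh was 0.15 (standard error 0.36, n = 2 libraries per treatment, adjusted p 0.988 in limma), and its direction turned with 1 library left out, to -0.27 without male BPA and -0.12 without male control, against 0.58 without female BPA and 0.43 without female control.

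The main receptor of the peptide, Crhr1 (gene ID 58959), was several times as abundant per length as the peptide's own mRNA. It was at 8.01 FPKM in control and 8.07 in BPA males, and at 7.45 FPKM in control and 5.84 in BPA females. The female BPA library was the lowest, the other 3 lay close together, and the BPA and control values overlapped. The ratio in females was 0.784 (log2 counting interval -0.71 to 0.00, estimated from 151 and 119 fragments), and in males it was 1.01 (-0.31 to 0.33). Combined over the sexes, the difference on log2(FPKM + 1) was -0.15 (95% interval -0.57 to 0.28, adjusted p 0.974 in limma), and it was 0.06 without the female BPA library.

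Of the enzymes, the activating one predominated. Hsd11b1 (gene ID 25116), which encodes the enzyme that regenerates active glucocorticoid from its inactive form, measured 9.53 (control) and 8.27 (BPA) FPKM in the male pools, and 10.21 and 8.16 FPKM in the female pools. Both BPA libraries lay below both control libraries. The level in BPA was 0.868 of control in males (log2 counting interval -0.59 to 0.17) and 0.799 in females (-0.72 to 0.04), so that neither difference exceeded counting error with 106 to 133 fragments per library. With both sexes combined, the difference on log2(FPKM + 1) was -0.24 (standard error 0.13, n = 2, adjusted p 0.973 in limma). Hsd11b2 (gene ID 25117), whose enzyme inactivates glucocorticoid and is known to shield fetal tissues, measured 0.38 (control) and 0.63 (BPA) FPKM in males and 0.45 and 0.38 FPKM in females, which stand for 6 to 10 fragments. At this depth no difference in Hsd11b2 was detectable, since the log2 counting interval ran from -0.87 to 2.48 in males and from -2.08 to 1.56 in females. The FPKM ratio of Hsd11b1 to Hsd11b2 within a library was 25.1 in male control (95% counting interval 11.3 to 70.3), 13.1 in male BPA (6.88 to 28.2), 22.7 in female control (10.8 to 58.0) and 21.5 in female BPA (9.46 to 59.3). The intervals of all 4 libraries overlapped, and each lay above 6.

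The mineralocorticoid receptor gene Nr3c2 rested on the most fragments among the 9 genes and was lower in the BPA library of each sex. Nr3c2 (gene ID 25672) was at 14.23 FPKM in control and 11.34 in BPA males, and at 13.66 FPKM in control and 11.53 in BPA females. Both BPA libraries lay below both control libraries, and the 2 libraries of each treatment lay close together. The level in BPA was 0.797 of control in males (log2 counting interval -0.48 to -0.17, from 754 and 601 fragments) and 0.844 in females (-0.41 to -0.09, from 711 and 603 fragments). Nr3c2 was the only member whose counting interval left out a ratio of 1 in both sexes, and more fragments make this interval narrower. The interval left out 1 for 28.2% of all rows in males and 36.9% in females. The share of rows that left it out in both sexes was not counted. With the sexes combined, the difference on log2(FPKM + 1) was -0.27 (standard error 0.12, 95% interval -0.55 to 0.02), with an unadjusted p of 0.064 and an adjusted p of 0.973 in limma, so that it did not pass the test. With sex as a term in the fit, the unadjusted p was 0.0488 and the adjusted p 0.553 in limma, and 8.98% of all rows had an unadjusted p under 0.05 in that fit. The difference lay between -0.29 and -0.24 without each library in turn. Its sign could not turn there, since both BPA libraries lay below both control libraries.

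The glucocorticoid receptor gene Nr3c1 (gene ID 24413) measured 4.09 (control) and 4.18 (BPA) FPKM in the male pools, and 5.16 and 4.25 FPKM in the female pools. The female control library stood above the other 3, and the BPA and control values overlapped. In males the ratio of BPA to control was 1.02 (log2 counting interval -0.24 to 0.29), and in females it was 0.824 (-0.53 to -0.03). Combined, the difference was -0.10 (standard error 0.18, n = 2, adjusted p 0.988 in limma), and it was 0.03 without the female control library, the library with the highest meningeal markers. Their part in the level of Nr3c1 was not tested.

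Set against each other within a library, Nr3c2 exceeded Nr3c1 per length in every library. The FPKM ratio of Nr3c2 to Nr3c1 was 3.48 in male control (95% counting interval 2.99 to 4.04), 2.71 in male BPA (2.34 to 3.17), 2.65 in female control (2.31 to 3.05) and 2.71 in female BPA (2.33 to 3.16). The ratio was thus highest in male control, and the other 3 libraries had nearly the same value. In females the BPA to control ratio was 0.844 for Nr3c2 and 0.824 for Nr3c1, while in males only the counting interval of Nr3c2 left out 1. After quantile normalization the female difference on log2(FPKM + 1) was -0.12 for Nr3c1, against -0.23 before it, and -0.17 for Nr3c2.

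**Figure D2:**
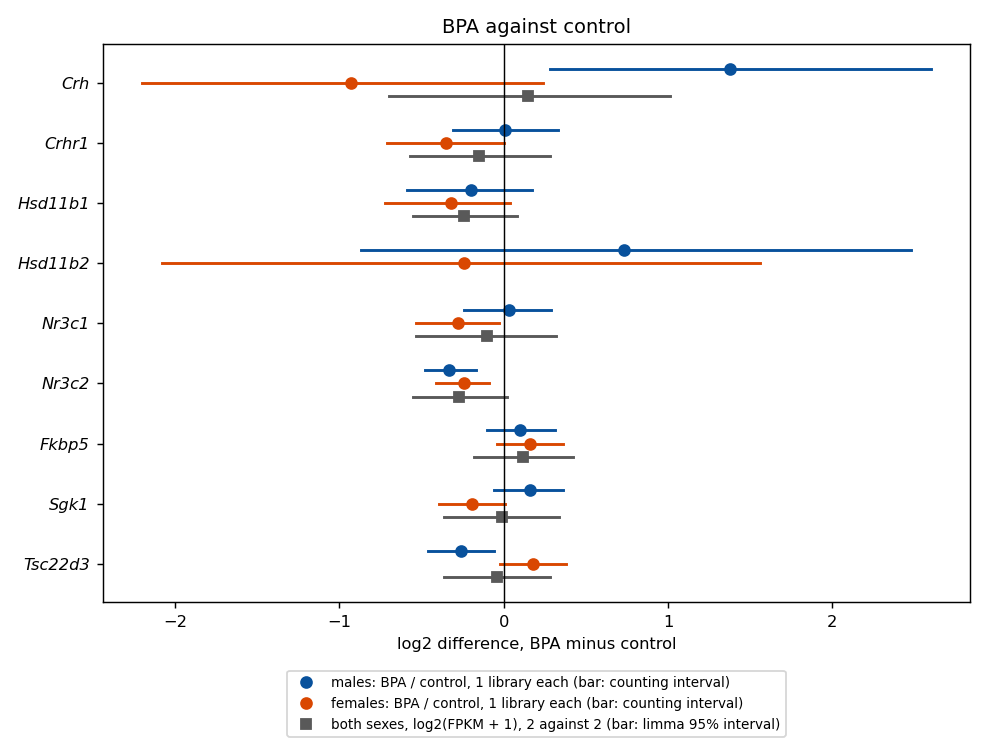
For each gene (y axis), the log2 difference of BPA minus control (x axis) is shown for males and females as the ratio of 1 library to 1 with its counting interval, and for both sexes on log2(FPKM + 1) with the 95% interval from limma, which is missing for Hsd11b2. Both counting intervals of Nr3c2 lay below 0, while every limma interval included 0.

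Fkbp5, Sgk1 and Tsc22d3 are textbook targets that glucocorticoids induce. Fkbp5 (gene ID 361810) encodes a co-chaperone that lowers the affinity of the glucocorticoid receptor for its hormone. It was at 12.55 FPKM in control and 13.47 in BPA males, and at 13.39 FPKM in control and 15.0 in BPA females. Both BPA libraries lay above both control libraries, but the gap between 13.39 and 13.47 FPKM was far smaller than the counting intervals of either value. The ratio of BPA to control was 1.07 in males (log2 counting interval -0.10 to 0.31) and 1.12 in females (-0.04 to 0.36), and the combined difference on log2(FPKM + 1) was 0.12 (standard error 0.13, n = 2, adjusted p 0.973 in limma).

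Sgk1 (gene ID 29517) encodes a kinase that acts on ion channels and transporters. It measured 13.30 (control) and 14.83 (BPA) FPKM in the male pools, and 17.03 and 14.96 FPKM in the female pools. The control libraries were the lowest and the highest of the 4, and the BPA libraries lay between them. The ratio was 1.12 in males (log2 counting interval -0.06 to 0.36) and 0.878 in females (-0.39 to 0.01), and the combined difference was -0.01 (95% interval -0.36 to 0.34, adjusted p 0.996 in limma). Without the female control library, which was also the one with the highest meningeal and vessel wall markers, it was 0.15. The part of those markers in the level of Sgk1 was not tested.

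Tsc22d3 (gene ID 83514) encodes GILZ, a leucine zipper protein that carries anti-inflammatory actions of glucocorticoids. It was at 28.71 FPKM in control and 23.97 in BPA males, and at 25.84 FPKM in control and 29.31 in BPA females. It was lower in BPA in the male pools and higher in the female pools, so that the values of the treatments overlapped. The ratio was 0.835 in males (log2 counting interval -0.46 to -0.06) and 1.13 in females (-0.02 to 0.38), and the combined difference was -0.04 (standard error 0.13, n = 2, adjusted p 0.988 in limma). That difference was 0.10 without the male BPA library, 0.04 without male control, -0.18 without female BPA and -0.11 without female control, so that no direction can be read from it. In males Tsc22d3 was lower in BPA and Fkbp5 and Sgk1 were within counting error of control, and in females the interval of none of the 3 left out a ratio of 1.

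The start regions of these 3 targets are shown because their mRNAs are the ones that serve as a readout of receptor activity. Windows of 300 bases (250 before and 50 after a transcript start) were taken from RefSeq for the rat build GRCr8, which matched 5 of the 9 members with 11 start sites (Crhr1, Fkbp5, Nr3c1, Sgk1 and Tsc22d3). The lines give the single window of Fkbp5 at chr20:6543506-6543805, the window of the last listed of 3 starts of Sgk1 at chr1:24804782-24805081 and that of the last listed of 3 starts of Tsc22d3 at chrX:109009985-109010284, each on the minus strand and read 5′ to 3′ along the gene. Capitals mark the GC box GGGCGG and the TATA box TATAAA on either strand.
Fkbp5: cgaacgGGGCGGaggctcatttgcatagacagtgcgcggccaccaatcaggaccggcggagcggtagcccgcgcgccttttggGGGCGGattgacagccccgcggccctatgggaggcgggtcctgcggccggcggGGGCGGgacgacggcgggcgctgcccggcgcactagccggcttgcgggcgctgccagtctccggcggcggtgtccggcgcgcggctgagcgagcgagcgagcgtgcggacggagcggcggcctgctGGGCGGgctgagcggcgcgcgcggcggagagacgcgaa
Sgk1: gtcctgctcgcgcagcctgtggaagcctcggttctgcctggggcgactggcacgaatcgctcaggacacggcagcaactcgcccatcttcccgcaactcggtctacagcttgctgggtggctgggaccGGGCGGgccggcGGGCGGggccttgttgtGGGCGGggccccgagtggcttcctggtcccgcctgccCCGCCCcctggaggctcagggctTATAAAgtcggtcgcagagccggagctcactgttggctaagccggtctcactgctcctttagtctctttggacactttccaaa
Tsc22d3: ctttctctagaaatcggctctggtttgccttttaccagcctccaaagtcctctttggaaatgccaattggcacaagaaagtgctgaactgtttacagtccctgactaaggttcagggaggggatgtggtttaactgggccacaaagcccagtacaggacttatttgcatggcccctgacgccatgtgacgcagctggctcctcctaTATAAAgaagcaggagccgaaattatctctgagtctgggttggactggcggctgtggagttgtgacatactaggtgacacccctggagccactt
The window of Fkbp5 held 4 GC boxes and no TATA box, that of Sgk1 held 4 GC boxes and 1 TATA box, and that of Tsc22d3 held 1 TATA box and no GC box. Over all 11 windows of members, 9 held a GC box and 3 a TATA box, against 33.1% and 14.2% of all 33469 windows. The 11 windows came from 5 genes and were not independent. The 2 windows of Crhr1 shared most of their bases, so that the same GC box was counted in each. Windows also differed within a gene, as the Tsc22d3 windows that are not printed held 1 and 3 GC boxes and no TATA box. Neither the palindromic glucocorticoid response element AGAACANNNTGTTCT nor its arm TGTTCT, searched on both strands, was found in any of the 11 windows. The arm was in 20.7% of all windows and the whole element in 0.0149%. The letters TGACG of the cyclic AMP response element occurred 2 times in the printed Tsc22d3 window, within none of the capitals, and in 21.2% of all windows. These matches describe letters in short windows, and enhancers further away were not examined.

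Set beside all rows, the counts among the members rest on few genes. Of the 8 with a mean of at least 1 FPKM, BPA and control libraries were separate for Nr3c2 and Hsd11b1, both below, and for Fkbp5, above, which is 37.5% where 33.6% of all rows had no overlap (13.8% above and 19.9% below) and 33.5% of the rows with a gene ID (13.3% above and 20.2% below). The counting interval of the ratio left out 1 for 3 of the 8 in males (Nr3c2, Crh and Tsc22d3) and for 2 in females (Nr3c1 and Nr3c2), which is 37.5% and 25.0% beside 28.2% and 36.9% of all rows and 25.0% and 34.9% of the rows with a gene ID. In the male comparison the median difference on log2(FPKM + 1) was 0.02 over the 8 members and -0.00 over all rows, and in the female comparison it was -0.23 over the members and -0.04 over all rows. The female difference of the members was negative for Nr3c1, Nr3c2, Hsd11b1, Crh, Crhr1 and Sgk1 and positive for Fkbp5 and Tsc22d3. Across all rows past a difference of 0.5 in females, 441 were higher and 929 lower in BPA, and after quantile normalization the split was 598 to 618. The male and female differences of the members had opposite signs in 5 of 8 genes, or 62.5%, beside 43.1% of all rows and 42.5% of the rows with a gene ID.

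**Figure D3:**
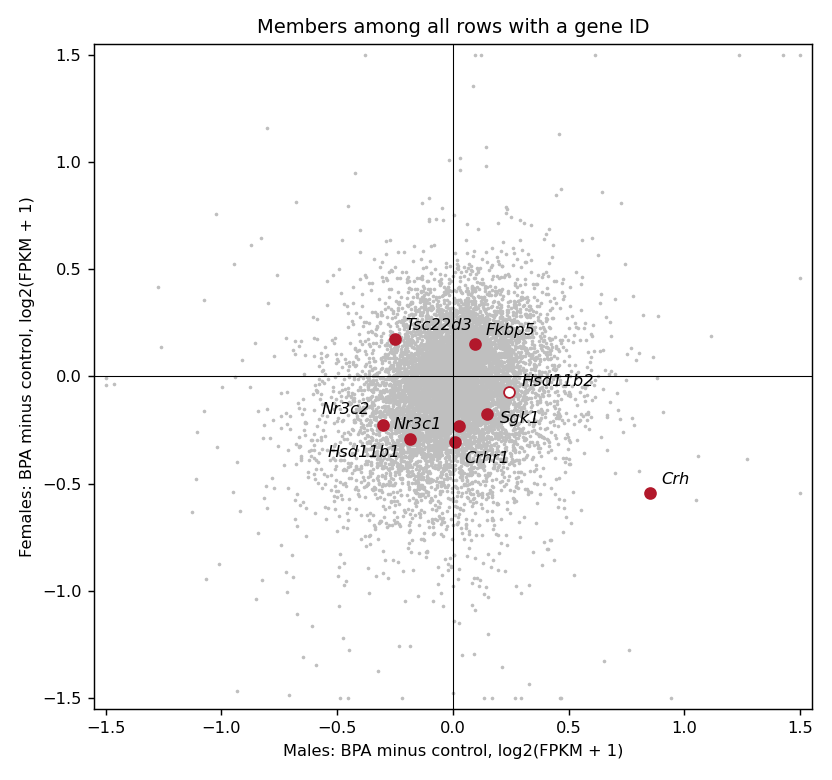
Each point is a row with a gene ID and a mean of at least 1 FPKM in each sex, placed by its BPA minus control difference on log2(FPKM + 1) in males (x axis) and in females (y axis), with values beyond 1.5 drawn at the edge. The 9 members are marked, with an open circle for Hsd11b2, and Crh, at 0.85 and -0.54, was the member farthest from 0. It was 1 of 16 rows with a gene ID past 0.5 in opposite directions.

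The sexes were also compared, with 2 female against 2 male libraries. None of the 8 members passed an adjusted p under 0.05 in limma, where 1 of 13542 rows did (0.00738%, or 0.00921% of the rows with a gene ID), and 0 of 8 had an unadjusted p under 0.05, beside 10.6% of all rows and 10.0% of those with a gene ID. Female and male libraries did not overlap for 3 of the 8 members (37.5%, beside 42.3% of all rows and 43.4% of those with a gene ID). Nr3c1 and Sgk1 were higher in both female libraries, with a female minus male difference of 0.15 (standard error 0.18) and 0.17 (standard error 0.12) and adjusted p of 0.813 and 0.649 in limma, and without the female control library the differences were 0.03 and 0.09. Crhr1 was lower in both female libraries, with a difference of -0.25 (standard error 0.16, n = 2, adjusted p 0.616 in limma), which was -0.10 without the female BPA library and -0.40 without the female control library. Of the 6 choroid plexus markers with a mean of at least 1 FPKM, 4 were likewise lower in both female libraries. Kcne2 and Otx2 overlapped between the sexes. Of the 10 pyramidal and granule neuron markers, 6 were also lower in both female libraries and 1 was higher. Over all 70 markers with a mean of at least 1 FPKM, 22 were lower and 9 higher. The part of these markers in the level of Crhr1 was not tested.

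The wider pathway was followed with 80 genes in 8 roles, of which 70 had a row and 52 a mean of at least 1 FPKM. With both sexes combined 0 of the 52 passed in limma and 3 had an unadjusted p under 0.05 (5.77%, near the 4.7% of all rows and 3.86% of those with a gene ID). These were Glul, Mt1 and Angptl4, of the glucocorticoid-induced list, each with an adjusted p of 0.973 in limma. Angptl4, a secreted lipase inhibitor, was at 14.05 (control) and 18.52 (BPA) FPKM in males and at 14.22 and 17.65 FPKM in females. Past an absolute difference of 0.5, males had 0 genes higher and 3 lower (5.77%, beside 7.26% of all rows and 3.46% of those with a gene ID) and females had 2 higher and 4 lower (11.5%, beside 10.1% and 6.15%). After quantile normalization males had 1 gene above and 1 below these bounds, and females 2 above and 3 below. The BPA and control libraries were separate for 20 of the 52 genes, 7 above and 13 below, or 38.5% beside the 33.6% of all rows. The median difference of the 52 was -0.04 in males and -0.07 in females.

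Among peptides and receptors other than Crh and Crhr1, 2 of 8 listed genes had a mean of at least 1 FPKM. Crhbp, whose protein binds and sequesters the CRH peptide, was the most abundant with 2.08 (control) and 2.38 (BPA) FPKM in males and 2.2 and 1.88 FPKM in females, and the treatments overlapped. Avpr1a, a vasopressin receptor gene, was at 1.92 FPKM in male control and 1.73 in female control against 1.03 in male BPA and 0.89 FPKM in female BPA. Both BPA libraries of Avpr1a thus lay at 0.536 and 0.514 of their control, with 12 to 26 fragments per library and log2 counting intervals of -1.94 to 0.10 and -2.09 to 0.12, and its combined difference of -0.53 (standard error 0.24) had an adjusted p of 0.973 in limma. In the corticotropin and melanocortin list, Mrap2, a melanocortin receptor accessory gene, was the most abundant with a mean of 4.24 FPKM. The melanocortin receptor gene Mc4r was at 1.30 (control) and 1.24 (BPA) FPKM in males and at 1.71 and 0.69 FPKM in females (log2 counting interval in females -2.46 to -0.25).

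Genes of steroid synthesis were hardly detected. None of the 7 reached a mean of 1 FPKM, 5 had a row in at least 1 library, and the most abundant of those listed in all 4, Star, whose protein brings cholesterol to the mitochondrion, had a mean of 0.365 FPKM. In the list of steroid transport and metabolism, Srd5a1, a steroid reductase gene, was the most abundant, with 6.96 (control) and 6.88 (BPA) FPKM in males and 6.49 and 6.32 FPKM in females, and the BPA to control ratios were 0.989 and 0.974.

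The genes listed as receptor chaperones were abundant. All 10 were measured, with means from 38.2 to 1020 FPKM, and none was past a difference of 0.5 in either sex, the differences lying between -0.25 and 0.02 in males and between -0.16 and 0.17 in females. Few rows with a gene ID were past it (3.46% in males and 6.15% in females), so that a count of 0 among 10 genes, or among the coregulators and effectors below, does not set a list apart. Hspa8, the most abundant, was at 1039.73 (control) and 989.82 (BPA) FPKM in males and at 1091.90 and 977.00 FPKM in females. The 8 coregulators with a row also had none past 0.5, with Smarca4, a chromatin remodelling ATPase gene, the most abundant at a mean of 68.7 FPKM. Of the effectors of the mineralocorticoid receptor and SGK1, 7 of 10 had a mean of at least 1 FPKM and none was past 0.5. The ubiquitin ligase gene Nedd4 led them, with 131.41 (control) and 122.02 (BPA) FPKM in males and 151.25 and 120.73 FPKM in females, both BPA libraries below both controls (combined difference -0.21, standard error 0.11, adjusted p 0.973 in limma).

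The glucocorticoid-induced genes other than the 3 members had differences in both directions, and none passed the test. Of 24 listed, 20 had a mean of at least 1 FPKM, and their median difference was -0.06 in males and 0.01 in females. In males Klf9, a transcription factor gene, was at 5.22 FPKM in control and 2.72 in BPA, with 4.12 and 3.86 FPKM in the female libraries, and its log2 counting interval was -1.40 to -0.50 in males and -0.52 to 0.34 in females. Cebpb, also a transcription factor gene, was at 3.04 (control) and 1.85 (BPA) FPKM in males (log2 counting interval -1.54 to 0.06) and at 0.98 and 1.13 FPKM in females. In females Ddit4, an inhibitor of mTOR signalling, was at 33.15 FPKM in control and 49.84 in BPA (log2 counting interval 0.42 to 0.75), with 46.82 and 47.06 FPKM in males. The female control library of Ddit4 was the low one, and the other 3 lay within 46.82 to 49.84 FPKM. The metallothionein gene Mt1 was at 23.80 and 34.68 FPKM in the female control and BPA libraries and at 30.04 and 34.64 FPKM in males (combined difference 0.36, standard error 0.13, n = 2, adjusted p 0.973 in limma). Sult1a1, a sulfotransferase gene, was at 4.45 (control) and 2.06 (BPA) FPKM in females (log2 counting interval -1.93 to -0.33). Pdk4, a kinase gene of fuel choice, was at 1.93 and 0.91 FPKM in females, from 23 and 11 fragments (-2.26 to 0.02). Both were highest in female control, the library with the highest meningeal and vessel wall markers, whose part in these levels was not tested.

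Glul, the glutamine synthetase gene of astrocytes, measured 128.46 (control) and 109.97 (BPA) FPKM in the male pools, and 141.52 and 112.58 FPKM in the female pools. Both BPA libraries lay below both controls, with log2 counting intervals of -0.31 to -0.15 in males and -0.41 to -0.26 in females and a combined difference of -0.27 (standard error 0.10, n = 2, adjusted p 0.973 in limma). Markers of astrocytes and radial glia had the same order by treatment: 6 of the 8 lay below both controls in both BPA libraries, as did 19.9% of all rows and 20.2% of those with a gene ID, and the 8 summed to 1470 (control) and 1320 (BPA) FPKM in males and 1480 and 1350 FPKM in females. Their part in the levels of Glul, Nr3c2 and Hsd11b1, which had the same order of libraries by treatment, was not tested.

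**Figure D4:**
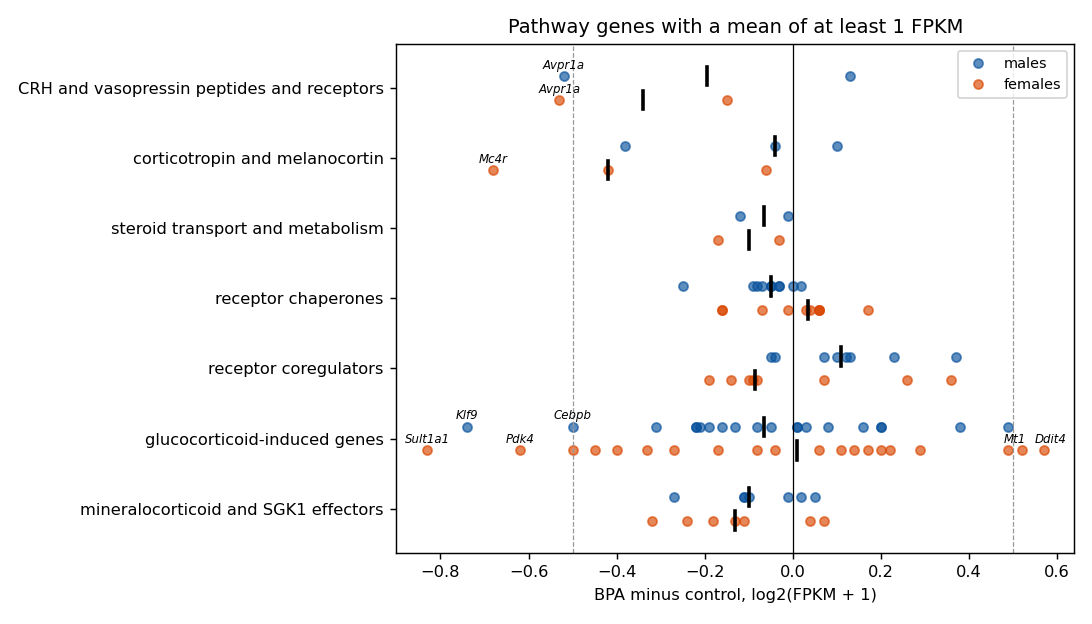
Points are the pathway genes with a mean of at least 1 FPKM by role (y axis), placed by their BPA minus control difference on log2(FPKM + 1) in males and in females (x axis), with a black tick for the median and dashed lines at -0.5 and 0.5. Chaperones, coregulators and effectors lay between the lines, and the genes past them were Avpr1a, Mc4r and 6 of the glucocorticoid-induced list.

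The rows most like a member over the 4 libraries were looked up for the 4 members that varied by at least 0.3 on log2(FPKM + 1), as a description over 4 values. For Nr3c2 these were Mcm3, Wfdc2 and Cyp20a1 (Pearson r 0.9994, 0.9987 and 0.9985), and 82 of 3660 rows compared, or 2.24%, had an r of at least 0.95. For Crhr1 they were Enpp2, Wwtr1 and Atg4d (98 of 1817 rows at 0.95 or more), and for Sgk1 they were Mrpl30, Phtf1 and Tgoln2 (73 of 3038 rows). Crh had no row at 0.95 among 128 compared, and the nearest were Tle2, Kpna2 and Nr2f2 with r of 0.80, 0.79 and 0.76.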

How the data were processed

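RNA of neonatal rat hippocampi was extracted with a mirVana kit and sequenced on libraries made by Illumina protocols, 1 library per sex and treatment. The submitters' processing notes name HISAT 0.1.6, Bowtie2 2.2.5, RSEM and the genome build rn6, with no roles given. The authors deposited 1 FPKM value per row and library, to 2 decimals and with 0.01 as the lowest value. FPKM depends on the gene model and on the makeup of the whole library, and no read counts were used.

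Samples were grouped by their titles. Files were joined by the row identifier. Differences were taken on log2(FPKM + 1), a scale that compresses low values. Rows under a mean of 1 FPKM were left out, and both-sex and female versus male comparisons used limma 3.58.1 (eBayes with trend) in R 4.3.3 with Benjamini-Hochberg adjustment. Library depth was estimated from rows of 300 to 1500 bases, as the depth and length offset at which low values become whole fragments. At these depths 94.9% to 98.5% of low values lay within 0.15 of a whole number. Estimated fragments gave exact Poisson intervals for levels and Clopper-Pearson intervals for ratios, both at 95% and for counting error only. RSEM can assign fractions of shared fragments, so these counts are approximate. The limma fit, depths and intervals were tested on simulated data. Other steps were done in Python 3.11.15 (scipy 1.17.1, numpy 2.4.6, pandas 2.3.3, matplotlib 3.10.9).

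Named are the 9 members, in each pathway role the most abundant gene and every gene with a mean of at least 1 FPKM past an absolute difference of 0.5 in a sex, and, for each varying member, the 3 most similar annotated rows of 5 FPKM or more on average with a range at least as wide. Angptl4 and H6pd fell outside the rule and were named after their values were seen. Members, lists and tests were chosen with earlier results of these data known. Marker lists covered 11 cell types or states, and the red blood cell, microglia, oligodendrocyte, interneuron, endothelial, thalamus or hypothalamus and immediate early lists summed to 1070 to 1360, 30.0 to 38.8, 90.0 to 131, 226 to 278, 110 to 135, 7.42 to 9.15 and 25.9 to 36.0 FPKM per library. Alternatives were quantile normalization, other filters, a pseudocount of 0.1, the other factor as a term, limma without trend and leaving out each library.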

Additional observations from a re-analysis of the deposited data

Results flagged for a closer look

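The male and female differences of 6 members had opposite signs, each between 1 library and 1, and the contrast between the sexes was not tested. The male minus the female log2 difference was 1.40 for Crh, -0.43 for Tsc22d3, 0.32 for Sgk1, 0.31 for Crhr1, 0.31 for Hsd11b2 and 0.26 for Nr3c1. Crh rested on 10 to 26 fragments per library and Hsd11b2 on 6 to 10. For Crhr1, Sgk1 and Nr3c1 the counting interval of the male ratio included 1, and for Tsc22d3 and Crh that of the female ratio did.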

How the results depend on the processing

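Within a sex, none of 62 recomputed differences of the members changed sign under quantile normalization, other filters or a pseudocount of 0.1. Between 1 library and 1, a filter leaves the difference as it is and a pseudocount cannot turn its sign. Only quantile normalization could have done so. The combined differences of Nr3c2 (-0.29 to -0.24), Hsd11b1 (-0.28 to -0.19) and Fkbp5 (0.05 to 0.20) kept their sign under every alternative run. The BPA and control libraries of these members did not overlap, so that only quantile normalization could have turned the sign. The lowest adjusted p of any member in the combined comparison was 0.553 (limma), for Nr3c2. Combined BPA differences turned in sign for Nr3c1 (0.03) and Sgk1 (0.15) without the female control library, for Crhr1 (0.06) without the female BPA library, for Crh (-0.27) and Tsc22d3 (0.10) without the male BPA library, and for Crh (-0.12) and Tsc22d3 (0.04) without the male control library. Female minus male differences turned for Nr3c2 (0.01 after quantile normalization, 0.10 without female BPA, 0.14 without male control), Hsd11b1 (-0.11 without female control, -0.06 without male BPA), Crh (0.12 without female BPA, 0.28 without male BPA) and Tsc22d3 (-0.02 without female BPA, -0.06 without male BPA). With 1 library left out, these differences ranged, for BPA, from -0.24 to 0.03 for Nr3c1, -0.27 to 0.58 for Crh, -0.35 to 0.06 for Crhr1, -0.18 to 0.15 for Sgk1 and -0.18 to 0.10 for Tsc22d3, and, for female minus male, from -0.17 to 0.14 for Nr3c2, -0.11 to 0.18 for Hsd11b1, -0.57 to 0.28 for Crh and -0.06 to 0.19 for Tsc22d3. The cause was not tested.

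The number of rows that limma called for BPA with both sexes combined was 6 without the intensity trend, 2 with sex as a term and 0 to 3 without 1 library, against 0. For female versus male it was 21 with a mean of at least 5 FPKM, 55 with treatment as a term and 1 to 2 without 1 library, against 1. Rows past a difference of 0.5 were 981 in males, 240 with a mean of at least 5 and 1535 with a pseudocount of 0.1, and in females 1370 and 446 with a mean of at least 5. Rows past 1 were 230 in males, 26 and 483 under those alternatives, and 314 in females, 62 and 590. Pathway genes past 0.5 in males were 3, and 5 with no filter, 0 with a mean of at least 5 and 5 with a pseudocount of 0.1, and in females 6, and 2 with a mean of at least 5. Rows with both BPA libraries below both controls were 2691, and 1731 with a mean of at least 5. By construction fewer rows enter the counts past a difference when a mean of at least 5 is required. The labels give no replicate numbers, so that libraries could be paired by sex only, which the fit with sex as a term did. The sum over new gene models was not run, since 0 new models had a best match to a member. With 1 library left out, the lone library of a treatment is assumed to vary like the others. Depth limits Crh and Hsd11b2 most.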

Other observations

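Of the 52 pathway genes, 6 were higher and 11 lower in both female libraries than in both male libraries. The sexes were apart for 42.3% of all rows and 43.4% of those with a gene ID. The pathway genes given here were picked after their values were seen. H6pd, whose enzyme supplies the cofactor that Hsd11b1 needs to make active steroid, measured 3.18 (control) and 2.84 (BPA) FPKM in males and 1.83 and 1.51 FPKM in females (female minus male -0.59, unadjusted p 0.0294, adjusted p 0.411 in limma). Sult1a1 was higher in both female libraries by 1.16 on the log2 scale and the difference of Cebpb was -0.72, with 0.88 and 0.78 FPKM of Sult1a1 in the male libraries. None of the 52 pathway genes passed an adjusted p under 0.05 between the sexes in limma. The 5 immediate early genes with a mean of at least 1 FPKM, which mark recent cell activity, were all lower in both female libraries. The sexes were apart, in either direction, for 42.3% of all rows. None of the 5 passed in limma (adjusted p 0.356 to 0.882), and Nr4a1 was apart only by 2.57 (female BPA) against 2.60 FPKM (male BPA). The whole list of 8 summed to 35.4 and 36.0 FPKM in the male and 28.0 and 25.9 FPKM in the female libraries.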
